A study of Arabidopsis thaliana with 7 samples.

Results

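ERF107 (AT5G61590, also known as DEWAX), ERF104 (AT5G61600), ERF105 (AT5G51190), ERF1 (AT3G23240), ERF2 (AT5G47220), ERF5 (AT5G47230), ERF6 (AT4G17490) and ORA59 (AT1G06160) are transcription factor genes of the ETHYLENE RESPONSE FACTOR (ERF) family of Arabidopsis. They were taken by gene identifier from the 32833 genes counted in 7 root RNA-seq libraries, so that 8 genes are described here. All carry the AP2/ERF DNA-binding domain and belong to group IX of the family, in which most members bind the GCC box of defence gene promoters. The 4 libraries of the cepd mutant (replicates 1 to 4) were compared with the 3 libraries of Col-0, the wild type in whose background the mutant was made (replicates 1, 3 and 4). The cepd plants are a single quadruple mutant line in which ROXY6, ROXY7, ROXY8 and ROXY9 were edited by CRISPR/Cas9. The 4 genes encode the CEPD proteins, CC-type glutaredoxins that travel from the shoot to the root as signals of nitrogen demand and act on TGA transcription factors. Seedlings of both genotypes had grown for 7 days on full nutrition (FN) medium (2 mM KNO3, 1 mM NH4NO3 and 1 mM glutamine) and then for 2 days on low N (LN) medium (0.1 mM KNO3 and 50 µM NH4NO3), under continuous light at 22 °C. Each library pooled the roots of 50 plantlets from 5 plates of 1 of 4 independent experiments, and the Col-0 sample that the study excluded for leaf material was not used here. The ages, media and tissue were thus the same in both genotypes, and the comparison asks how these genes differ in roots without CEPD proteins.

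Most ERF proteins of this group are activators that couple ethylene, jasmonate and pathogen signals to transcription. ERF1 and ORA59 are known for joining the ethylene and jasmonate pathways upstream of the defensin gene PDF1.2. ERF5, ERF6 and ERF104 are linked to MAP kinases of the immune response, and transcripts of several members rise within minutes of wounding, touch or chitin in other experiments. ERF107 is known best from shoots, where it lowers the transcription of wax synthesis genes. In roots, the same family takes part in responses to ethylene, to microbes and to mechanical load.

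The genes are intronless, and 5 of them lie on chromosome 5. In the TAIR10.1 annotation of RefSeq, ERF107 spans 24764256 to 24765511 and ERF104 spans 24766344 to 24767732 of chromosome 5, both on the minus strand, with 832 bp and no other annotated gene between them. ERF2 (19171643 to 19172956, minus strand) and ERF5 (19179881 to 19181182, plus strand) point away from each other on chromosome 5, 6924 bp apart, with 2 further annotated genes between them. ERF6 lies on chromosome 4 (9752824 to 9754161, minus strand), ORA59 on chromosome 1 (1882907 to 1883992, plus strand) and ERF1 on chromosome 3 (8295617 to 8296604, plus strand). ERF6 has ERF1A, another group IX gene, as its neighbour 5041 bp away. The closest coding sequences among the 8 genes were those of ERF5 and ERF6, identical at 67.7% of alignment columns. The neighbours ERF107 and ERF104 were identical at 43%. Columns with a gap count as unlike in these shares. No 2 of the 8 annotated transcripts shared an exact run of more than 29 bp.

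The 250 bp upstream of the annotated gene start are shown for both neighbours of each pair with members that differed between the genotypes, and for ORA59. They were read from the RefSeq genome TAIR10.1 at chr5:24765512-24765761 for ERF107, chr5:24767733-24767982 for ERF104, chr5:19172957-19173206 for ERF2 (these 3 on the minus strand), chr5:19179631-19179880 for ERF5 and chr1:1882657-1882906 for ORA59 (both on the plus strand). Capitals mark matches on either strand to the TGA factor motifs TGACG, TGACGTCA and TACGTA, the GCC box core GCCGCC, the W box core TTGAC and the G box CACGTG.
ERF107: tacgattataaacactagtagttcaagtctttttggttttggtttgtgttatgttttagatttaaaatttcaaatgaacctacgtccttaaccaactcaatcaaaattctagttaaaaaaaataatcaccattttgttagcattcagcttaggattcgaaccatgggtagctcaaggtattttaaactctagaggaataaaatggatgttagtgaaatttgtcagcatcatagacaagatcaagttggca
ERF104: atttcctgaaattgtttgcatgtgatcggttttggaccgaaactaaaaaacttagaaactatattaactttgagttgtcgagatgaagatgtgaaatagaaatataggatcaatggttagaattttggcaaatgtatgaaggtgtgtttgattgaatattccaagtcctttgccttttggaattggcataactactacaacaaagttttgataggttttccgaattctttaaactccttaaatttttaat
ERF2: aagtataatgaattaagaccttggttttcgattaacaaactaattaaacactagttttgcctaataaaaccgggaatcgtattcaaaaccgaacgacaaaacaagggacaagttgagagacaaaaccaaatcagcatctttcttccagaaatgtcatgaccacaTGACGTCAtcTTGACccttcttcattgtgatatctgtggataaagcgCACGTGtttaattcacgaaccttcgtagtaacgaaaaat
ERF5: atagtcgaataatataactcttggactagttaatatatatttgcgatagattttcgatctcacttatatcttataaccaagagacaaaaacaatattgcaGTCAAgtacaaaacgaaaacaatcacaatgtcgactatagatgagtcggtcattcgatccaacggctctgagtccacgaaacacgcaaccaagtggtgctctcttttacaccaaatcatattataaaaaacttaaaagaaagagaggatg
ORA59: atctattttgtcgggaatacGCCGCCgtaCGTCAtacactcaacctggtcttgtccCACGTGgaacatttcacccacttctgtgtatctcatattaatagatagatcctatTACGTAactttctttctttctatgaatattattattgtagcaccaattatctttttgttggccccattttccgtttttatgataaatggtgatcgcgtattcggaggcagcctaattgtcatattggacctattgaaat

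ERF2 held the palindrome TGACGTCA with its first base 86 bp upstream of the start, and TGACG matches on both strands within it. This palindrome was found in 0.503% of the 27437 upstream windows of that length in the genome. ERF2 also held a W box core 76 bp and a G box 39 bp upstream, motifs found in 44.9% and 6.49% of windows. ORA59 held GCCGCC at 230 bp, TGACG at 221 bp, CACGTG at 194 bp and TACGTA at 139 bp upstream. Of all windows, 1.87% held GCCGCC, 18.6% held TGACG and 4.95% held TACGTA. ERF5 held only a W box core, at 150 bp, and the windows of ERF107 and ERF104 held none of these 6 motifs. In 1000 bp, ERF104 had 1 TGACG match, at 595 bp, which overlaps a TTGAC match, and ERF107 had neither TGACG nor TACGTA. At that length TGACG occurred in 54.1% of windows. These are matches of letters and not measured binding sites. The study names ERF107 among the genes repressed by CEPDs that are in a published list of loci bound by TGA1. That list came from roots of seedlings on another medium.

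In cepd roots, ERF107, ERF104 and ORA59 transcripts were higher and ERF2 and ERF5 transcripts were lower than in Col-0 roots. ERF6 did not pass the test, ERF1 was removed by the filter on low counts and ERF105 had no counts. At an adjusted p under 0.05 in edgeR's quasi-likelihood test, 3 of the 6 members tested were higher in cepd, where 9.64% of the 20600 genes tested were higher. A further 2 of the 6 were lower, where 8.3% of all genes tested were lower. With the replicate number as a block for the experiment, 2 members were higher and 2 lower, and ERF107 did not pass. The median log2 fold change (log2FC, cepd over Col-0) of the 6 members was 0.39, against 0.00711 over all genes tested. With the added condition of an absolute log2FC over 1, ERF107 and ORA59 stayed among the higher genes (1.93% of all genes tested) and ERF2 among the lower ones (2.45%), 3 members where 4.38% of all genes tested passed in either direction. Libraries of the genotypes did not overlap for 4 of the 6 members, against 29.1% of all genes tested. ERF107 and ERF104 had all 4 cepd libraries above the 3 Col-0 libraries (15.3% of all genes tested), and ERF2 and ERF5 had them all below (13.8%). Members tested are those with enough counts in either genotype, so the 6 are not a sample of all 8 genes.

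**Figure D1:**
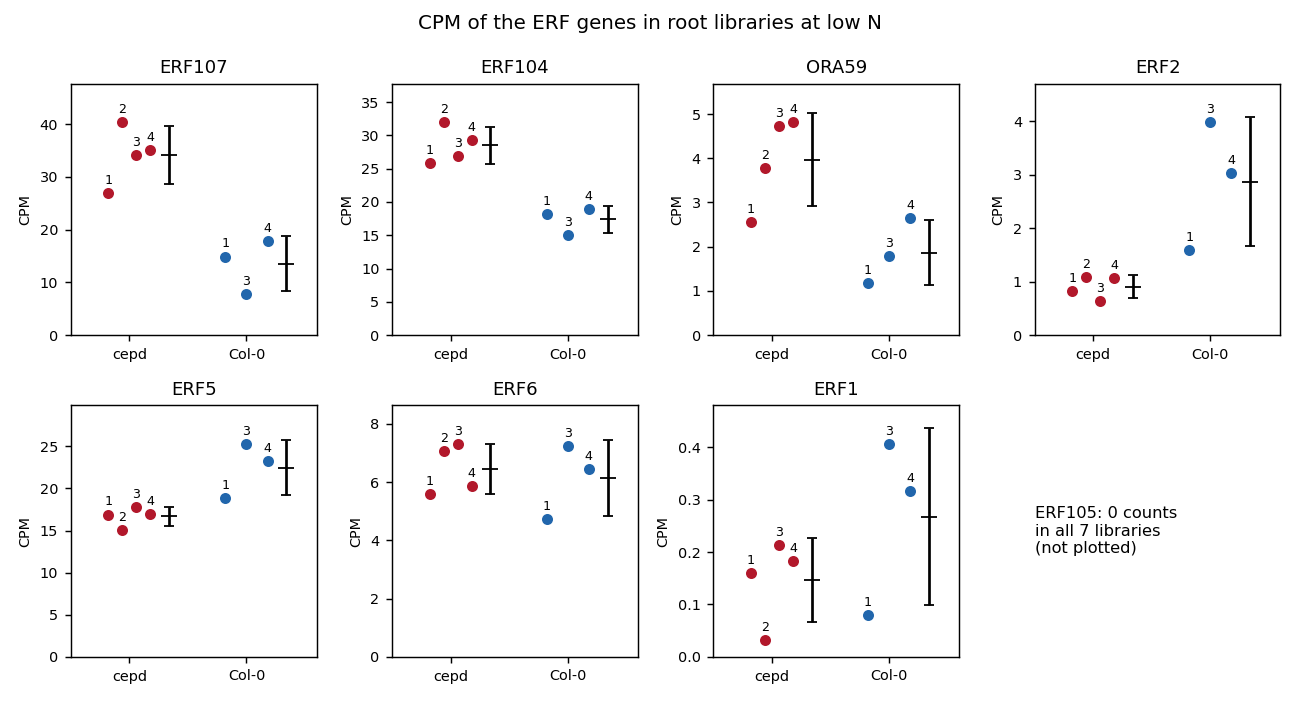
CPM (counts scaled to library size, with TMM factors) of 7 ERF genes in each library, with cepd in red and Col-0 in blue. Digits give the replicate, and black bars give the mean ± SD over 4 cepd and 3 Col-0 libraries. ERF107, ERF104, ERF2 and ERF5 did not overlap between the genotypes, whereas 1 cepd library of ORA59, with 2.55 CPM, lay below 1 Col-0 library, with 2.64 CPM.

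Facts of the whole series bear on these values. The libraries held 30758339 to 46611731 counts in cepd and 37292558 to 38474492 counts in Col-0. Transcripts of the edited genes were scarce in both genotypes, with ROXY6 at 2.79 to 4.48 CPM in cepd and 5.23 to 5.96 CPM in Col-0, and these levels do not check the genotype, since an edited reading frame can leave a transcript in place. Of 10 root markers, all had counts in every library, PYK10, a root beta-glucosidase gene, was higher in cepd and COBL9 and EXPA7, genes of root hairs, were lower. Of 12 leaf markers, all tested, 10 were higher in cepd and none was lower in edgeR, DESeq2 or limma-voom (11 higher and 0 lower at an unadjusted p under 0.05 in edgeR). In edgeR 83.3% of leaf markers and 30.0% of root markers passed, where 17.9% of all genes tested passed. The summed level of the leaf markers was 540 to 730 CPM in cepd and 230 to 315 CPM in Col-0, none of them was at 0 in any library, and their part in the differences of the ERF genes was not tested. Their log2FC ran from 0.28 to 1.59. The study reports photosynthesis among the terms enriched in genes that were higher in cepd roots. In roots sampled whole, more cells with a transcript and more transcript per cell cannot be told apart.

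ERF107 showed the largest rise of the members tested. It had 27.0, 40.4, 34.1 and 35 CPM in cepd replicates 1 to 4, against 14.9, 7.85 and 17.9 CPM in Col-0 replicates 1, 3 and 4. The lowest cepd library lay above the highest Col-0 library, and Col-0 replicate 3 stood apart as the lowest of the 7. The mean was 34.1 ± 5.51 CPM in cepd (SD, n = 4) and 13.5 ± 5.15 CPM in Col-0 (SD, n = 3). This was a log2FC of 1.33 ± 0.26 (standard error; edgeR's quasi-likelihood test, adjusted p = 0.00861), or 2.52-fold. With the replicate number as a block for the experiment, the log2FC was 1.29 and the call was lost (adjusted p = 0.104 from edgeR). Cepd replicate 2, the highest library for ERF107, has no Col-0 partner and adds nothing to the genotype difference in that fit. Within same-numbered experiments, ERF107 was higher in cepd by 0.83, 2.05 and 0.95 on the log2(CPM + 0.5) scale in experiments 1, 3 and 4. All 3 differences had the same sign, and that of experiment 3 was the largest.

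ERF104, whose protein is a substrate of the MAP kinase MPK6 in immune signalling, rose by less but with less spread. It had 25.8, 32.0, 26.9 and 29.3 CPM in cepd replicates 1 to 4, against 18.2, 15 and 18.9 CPM in Col-0 replicates 1, 3 and 4. The groups did not overlap, and in each genotype the libraries fell in the same order for ERF104 as for its neighbour ERF107. The mean was 28.5 ± 2.75 CPM in cepd (SD, n = 4) and 17.3 ± 2.07 CPM in Col-0 (SD, n = 3). The log2FC was 0.71 ± 0.11 (standard error; edgeR's quasi-likelihood test, adjusted p = 0.00173), or 1.64-fold. In experiments 1, 3 and 4, ERF104 was higher in cepd by 0.50, 0.82 and 0.62 on the log2(CPM + 0.5) scale.

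The summed level of the leaf markers in the same libraries was 730, 607, 559 and 540 CPM in cepd replicates 1 to 4, against 315, 230 and 250 CPM in Col-0 replicates 1, 3 and 4. Leaf markers, ERF107 and ERF104 were thus all higher in cepd. Cepd replicate 1 had the highest leaf marker level and the lowest ERF107 and ERF104 levels of the mutant, and Col-0 replicate 3 had the lowest level of all 3 in the wild type.

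ORA59, the activator through which ethylene and jasmonate jointly induce PDF1.2, was higher in cepd but not separated. It had 2.55, 3.79, 4.72 and 4.82 CPM in cepd replicates 1 to 4, against 1.17, 1.79 and 2.64 CPM in Col-0 replicates 1, 3 and 4. Cepd replicate 1 lay just below Col-0 replicate 4, and replicate 1 was the lowest library of each genotype. The mean was 3.97 ± 1.06 CPM in cepd (SD, n = 4) and 1.87 ± 0.735 CPM in Col-0 (SD, n = 3), on 44 to 221 counts per library. The log2FC was 1.09 ± 0.29 (standard error; edgeR's quasi-likelihood test, adjusted p = 0.0308), or 2.13-fold. Leaving out cepd replicate 2, 3 or 4 or Col-0 replicate 3 ended the call, with adjusted p of 0.0654, 0.0774, 0.0701 and 0.104 in that order (edgeR). With the block for the experiment, the log2FC was 1.12 and ORA59 passed (adjusted p = 0.000681 from edgeR). Within experiments 1, 3 and 4, ORA59 was higher in cepd by 0.87, 1.19 and 0.76 on the log2(CPM + 0.5) scale.

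ERF2, an activator of GCC box genes in ethylene and jasmonate responses, showed the deepest fall of the members tested. It had 0.831, 1.08, 0.640 and 1.07 CPM in cepd replicates 1 to 4, against 1.6, 3.99 and 3.03 CPM in Col-0 replicates 1, 3 and 4. Every cepd library lay below every Col-0 library, and Col-0 replicate 1 had less than 2 CPM while the other Col-0 libraries had more than 3. These levels rested on 30 to 41 counts per library in cepd and 60 to 147 in Col-0. The mean was 0.907 ± 0.213 CPM in cepd (SD, n = 4) and 2.87 ± 1.2 CPM in Col-0 (SD, n = 3). The log2FC was -1.68 ± 0.31 (standard error; edgeR's quasi-likelihood test, adjusted p = 0.0056), so that ERF2 was 3.2-fold lower in cepd. In experiments 1, 3 and 4, ERF2 differed by -0.66, -1.98 and -1.17 on the log2(CPM + 0.5) scale (cepd minus Col-0). At levels of 0.640 to 1.08 CPM in cepd, the added 0.5 makes these differences smaller in size.

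ERF5, an activator in chitin responses and in growth under osmotic stress, was moderately lower in cepd. It had 16.9, 15.1, 17.8 and 17.0 CPM in cepd replicates 1 to 4, against 18.9, 25.3 and 23.2 CPM in Col-0 replicates 1, 3 and 4. The groups did not overlap, and as for ERF2 the Col-0 library nearest to cepd was replicate 1. The mean was 16.7 ± 1.17 CPM in cepd (SD, n = 4) and 22.5 ± 3.26 CPM in Col-0 (SD, n = 3). The log2FC was -0.43 ± 0.11 (standard error; edgeR's quasi-likelihood test, adjusted p = 0.0214). Leaving out cepd replicate 2 or Col-0 replicate 3 or 4 ended the call, with adjusted p of 0.0618, 0.0927 and 0.0688 in that order (edgeR). With the block for the experiment, the log2FC was -0.37 and ERF5 passed (adjusted p = 0.00899 from edgeR). In experiments 1, 3 and 4, ERF5 differed by -0.16, -0.49 and -0.44 on the log2(CPM + 0.5) scale (cepd minus Col-0).

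ERF6, a substrate of MPK3 and MPK6 and the closest relative of ERF5 among the 8 genes, did not pass the test. It had 5.58, 7.07, 7.32 and 5.87 CPM in cepd replicates 1 to 4, against 4.72, 7.25 and 6.46 CPM in Col-0 replicates 1, 3 and 4. The groups overlapped over most of their range. The mean was 6.46 ± 0.865 CPM in cepd (SD, n = 4) and 6.14 ± 1.29 CPM in Col-0 (SD, n = 3), a log2FC of 0.07 ± 0.16 (standard error; edgeR's quasi-likelihood test, adjusted p = 0.787). The sign of this value depended on Col-0 replicate 1, without which the log2FC was -0.09.

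ERF1, which induces defence genes downstream of EIN3, had the fewest counts of the members with any. It had 6, 1, 10 and 7 counts in cepd replicates 1 to 4, against 3, 15 and 12 counts in Col-0 replicates 1, 3 and 4. The groups overlapped and the gene was removed by the filter on low counts. Without that filter its log2FC was -0.78 ± 0.57 (standard error; edgeR's quasi-likelihood test, adjusted p = 0.417). Without Col-0 replicate 1 it entered the test and had a log2FC of -1.21 (adjusted p = 0.092 from edgeR).

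ERF105, known from cold tolerance and closest in coding sequence to ERF104 at 55% identity, had 0 counts in all 7 libraries. Its single exon (20800473 to 20801437 of chromosome 5, minus strand) lies wholly inside exon sequence of AT5G51180 (20796950 to 20801479, plus strand). The library kit does not mark strand, and reads there cannot be assigned to either gene. Of the 1188 genes whose exons are wholly covered by exons of other genes, 95.5% had 0 counts in every library, against 18.1% of the 22506 genes with no covered exon. The 0 therefore does not show whether ERF105 was transcribed in these roots.

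The levels per length were also ordered differently in cepd and Col-0. In cepd, ERF107 had the highest mean, 27.2 ± 4.39 CPM per kb of exon (SD, n = 4), followed by ERF104 with 20.5 ± 1.98, ERF5 with 12.8 ± 0.9 and ERF6 with 4.83 ± 0.646. In Col-0, ERF5 came first with 17.3 ± 2.51 CPM per kb of exon (SD, n = 3), followed by ERF104 with 12.5 ± 1.49, ERF107 with 10.8 ± 4.1 and ERF6 with 4.59 ± 0.968. ORA59 had 3.65 ± 0.972 CPM per kb in cepd (SD, n = 4) and 1.72 ± 0.677 in Col-0 (SD, n = 3), and ERF2 had 0.69 ± 0.162 in cepd and 2.19 ± 0.916 in Col-0. Neighbours in this order whose libraries overlapped were ERF107 with ERF104 and ERF6 with ORA59 in cepd, and ERF104 with ERF107 and ERF2 with ORA59 in Col-0. ERF1 stood below these 6 genes in both genotypes, with 0.149 ± 0.081 CPM per kb in cepd and 0.271 ± 0.171 in Col-0.

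ERF107 and ERF104, and likewise ERF2 and ERF5, differed by unequal amounts between the genotypes, and the ratio of ERF6 to ERF1A did not pass the test. The log2 ratio of ERF107 to ERF104 within a library was 0.06, 0.33, 0.34 and 0.25 in cepd replicates 1 to 4, against -0.27, -0.89 and -0.08 in Col-0 replicates 1, 3 and 4. In CPM, which take no account of length, ERF107 was thus above ERF104 in every cepd library and below it in every Col-0 library. Per kb of exon, ERF107 was the higher in Col-0 replicate 4 as well (14.2 against 13.6). The mean ratio was 0.25 ± 0.13 in cepd (SD, n = 4) and -0.41 ± 0.42 in Col-0 (SD, n = 3), a difference of 0.66 (two-sided exact permutation test over 35 regroupings, p = 0.0286, adjusted p = 0.0429 over 3 pairs). The p of 0.0286 is the smallest that these regroupings can give, and the test does not use the pairing of experiments.

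The log2 ratio of ERF2 to ERF5 was -3.71, -3.30, -4.01 and -3.47 in cepd replicates 1 to 4, against -3.21, -2.52 and -2.75 in Col-0 replicates 1, 3 and 4. Every cepd library lay below every Col-0 library, with cepd replicate 2 and Col-0 replicate 1 nearest to each other. The difference of the means was -0.80 (two-sided exact permutation test, p = 0.0286, adjusted p = 0.0429 over 3 pairs). With a pseudocount of 1 in place of 0.5 it was -0.58 and did not pass (exact permutation p = 0.0571). As a ratio of raw counts with 1 added to each, it was -1.15 (exact permutation p = 0.0286). For ERF6 over ERF1A the mean log2 ratio was -1.04 ± 0.16 in cepd (SD, n = 4) and -1.21 ± 0.28 in Col-0 (SD, n = 3), with overlapping libraries (exact permutation p = 0.314, adjusted p = 0.314 over 3 pairs).

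**Figure D2:**
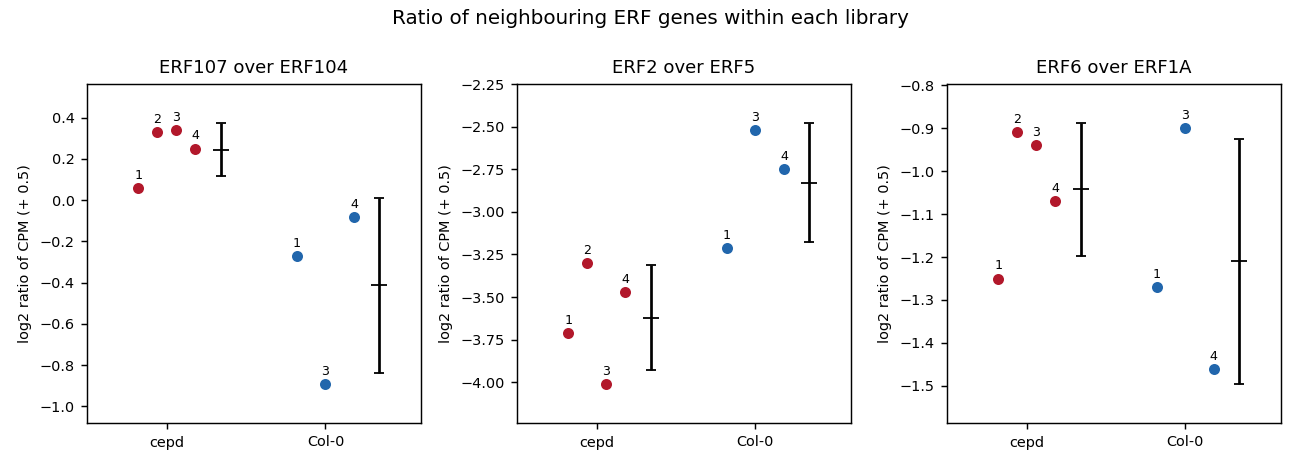
Log2 ratio of CPM (each with 0.5 added) of neighbouring ERF genes within each library, with cepd in red and Col-0 in blue. Digits give the replicate and black bars the mean ± SD over 4 cepd and 3 Col-0 libraries. ERF107 over ERF104 was above 0 in the 4 cepd libraries and below 0 in the 3 Col-0 libraries, and ERF6 over ERF1A overlapped. The ratios are not corrected for transcript length.

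Members differed in how far their replicates spread. The coefficient of variation of CPM between libraries was 7.02% in cepd and 14.5% in Col-0 for ERF5, and 9.66% in cepd and 12% in Col-0 for ERF104. It was 16.1% in cepd and 38% in Col-0 for ERF107, 23.4% in cepd and 41.9% in Col-0 for ERF2, and 26.6% in cepd and 39.4% in Col-0 for ORA59. The dispersions that edgeR estimated for ERF107, ERF2 and ORA59 lay at the 95.7, 97.4 and 96.9 percentiles of all genes tested, and that of ERF104 at the 52.7 percentile. The 3 members with an absolute log2FC over 1 were thus also the 3 with the highest dispersions among the 6 tested.

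Of the 9 other group IX genes, 5 were tested in edgeR, 1 was higher in cepd and none was lower, also by DESeq2 and limma-voom (3 higher and 0 lower at an unadjusted p under 0.05). Of the 5 tested, 20.0% passed in edgeR, near the 17.9% of all genes tested. The one that rose was ERF15, an activator linked to abscisic acid and immune responses, whose coding sequence was 69.8% identical to that of ORA59. It had 8.10, 7.77, 9.27 and 10.1 CPM in cepd replicates 1 to 4, against 3.89, 6.14 and 5.88 CPM in Col-0 replicates 1, 3 and 4. The groups did not overlap, with a log2FC of 0.73 ± 0.16 (standard error; edgeR's quasi-likelihood test, adjusted p = 0.0135). ERF106, the closest relative of ERF107 in coding sequence (73.9% identity), had a log2FC of 0.26 (adjusted p = 0.127 from edgeR). ERF1A, ERF91 and ERF98 did not pass either, ESE1 and ERF96 had 0 counts in all libraries and ERF13 and ERF14 were removed by the filter. Without Col-0 replicate 1, ERF14 entered the test and was lower (log2FC of -1.77, adjusted p = 0.0323 from edgeR). None of the 8 group VIII ERF genes, which encode repressors of the same GCC box, passed in edgeR, DESeq2 or limma-voom. At an unadjusted p under 0.05 in edgeR, 1 was higher and 2 were lower, and with the block ERF4 was higher (log2FC of 0.27, adjusted p = 0.00743 from edgeR).

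**Figure D3:**
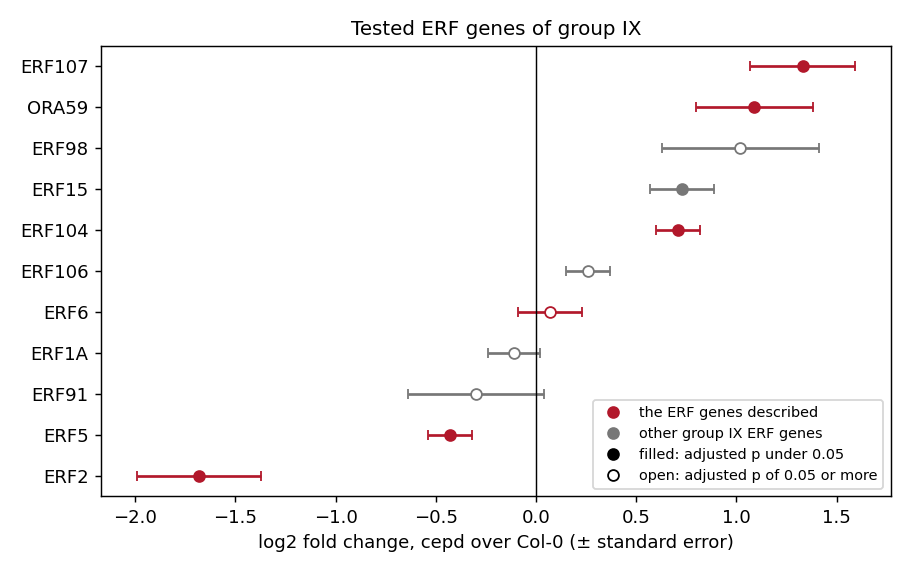
Log2 fold change (cepd over Col-0) with its standard error for the 6 tested ERF genes described here (red) and 5 other tested genes of group IX (grey). Filled points passed an adjusted p of 0.05 in edgeR. Values ran between -1.68 for ERF2 and 1.33 for ERF107, and ERF15 was the other gene that passed.

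Upstream of the ERF genes, 1 ethylene synthesis gene was higher and 1 lower, and receptors and signalling genes did not pass. The 12 synthesis genes tested had a list median log2FC of -0.03. Of these, 16.7% passed, near the 17.9% of all genes tested. ACO3, an ACC oxidase of the last step, had 36.5, 36.9, 33.2 and 33.4 CPM in cepd replicates 1 to 4, against 15.4, 13.6 and 18 CPM in Col-0 replicates 1, 3 and 4. This rise of 1.16 ± 0.10 on the log2 scale (standard error; edgeR's quasi-likelihood test, adjusted p = 0.000103) was larger than the spread in either genotype. ACS7, an ACC synthase of the step before, had 4.11 to 5.09 CPM in cepd and 7.01 to 11.6 CPM in Col-0, a log2FC of -0.97 ± 0.16 (standard error; edgeR's quasi-likelihood test, adjusted p = 0.00365). With the block ACO5 was lower as well (log2FC of -0.23, adjusted p = 0.0108 from edgeR), and without Col-0 replicate 1 ACO4 and ACO5 were lower (adjusted p = 0.00941 and 0.0441 from edgeR).

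Of 13 genes of ethylene perception and signalling tested, none passed at an adjusted p under 0.05 in edgeR, with log2FC from -0.47 to 0.28 and a median of 0.08. None passed in DESeq2 or limma-voom either, and 3 were higher and 1 lower at an unadjusted p under 0.05 in edgeR. With the block, ETR2, a receptor that ethylene itself induces, was lower (log2FC of -0.50, adjusted p = 0.00361 from edgeR), and RAN1, the copper transporter that loads the receptors, was higher (log2FC of 0.24, adjusted p = 0.00655 from edgeR). Without Col-0 replicate 1, both passed in the same directions (adjusted p = 0.00482 for ETR2 and 0.0173 for RAN1 from edgeR), and without cepd replicate 1, ERS2 and EIL1 were higher (adjusted p = 0.0329 and 0.0394 from edgeR).

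Among known targets with enough counts to be tested, 1 defence gene was higher in cepd, 1 was lower and the others did not pass. Of 8 defence genes that ethylene and jasmonate induce, 3 were tested, and the defensin genes PDF1.1, PDF1.2A, PDF1.2B, PDF1.2C and PDF1.3 had at most 1 count in any library. HEL, which encodes a hevein-like protein, had 106 to 142 CPM in cepd and 58.4 to 99.7 CPM in Col-0, a log2FC of 0.62 (adjusted p = 0.0423 from edgeR). OSM34, an osmotin-like gene, had 68.2 to 93.8 CPM in cepd and 92.7 to 129 CPM in Col-0, a log2FC of -0.53 (adjusted p = 0.0236 from edgeR). HEL did not pass once cepd replicate 2, 3 or 4 or Col-0 replicate 3 was left out (adjusted p of 0.073, 0.0977, 0.0936 and 0.0874 in that order, edgeR), nor with no filter on low counts (adjusted p = 0.0608). OSM34 did not pass once cepd replicate 1, 2 or 4 or Col-0 replicate 3 or 4 was left out (adjusted p of 0.0594, 0.0581, 0.0516, 0.104 and 0.0849 in that order, edgeR). With the block, HEL and OSM34 passed (adjusted p = 0.00018 and 0.031 from edgeR). HCHIB, a basic chitinase, did not pass (log2FC of 0.07). Of 4 wax and lipid genes known as targets of ERF107 in shoots (CER1, LACS2, ACLA-2 and CER10), none passed in edgeR, DESeq2 or limma-voom (0 higher and 1 lower at an unadjusted p under 0.05 in edgeR), and their log2FC ran from -0.20 to 0.01.

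The jasmonate list held 15 genes and gave 1 higher and 1 lower gene of 12 tested in edgeR, with a median log2FC of -0.04. MYC2 had 0 counts in every library and was not tested. The genes that passed were 16.7% of those tested, near the 17.9% of all genes tested that passed. DESeq2 called 1 higher and 3 lower, limma-voom 1 higher and 2 lower, and 2 were higher and 3 lower at an unadjusted p under 0.05 in edgeR. AOC3, an allene oxide cyclase of jasmonate synthesis, had 35.5 to 38.5 CPM in cepd and 44.3 to 49.8 CPM in Col-0, a log2FC of -0.33 (adjusted p = 0.0115 from edgeR). MYC3, a transcription factor of the jasmonate response, had 60.4 to 77.2 CPM in cepd and 46.1 to 60.2 CPM in Col-0, a log2FC of 0.40 (adjusted p = 0.0408 from edgeR). MYC3 did not pass once cepd replicate 1, 2 or 3 or Col-0 replicate 3 or 4 was left out (adjusted p of 0.0996, 0.115, 0.0638, 0.161 and 0.106 in that order, edgeR). It passed with the block (adjusted p = 0.0038 from edgeR). With the block, MYC4 was also higher and LOX4 and VSP2 were also lower (adjusted p = 0.0043, 0.018 and 0.0172 from edgeR). Of 7 MAP kinase cascade genes, MPK3 was higher, with 42.6 to 45.4 CPM in cepd and 35.1 to 37.9 CPM in Col-0 (log2FC of 0.29, adjusted p = 0.0112 from edgeR), and the other 6 did not pass. This is 14.3% of that list, below the 17.9% of all genes tested.

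Among transcripts known to rise early after chitin, wounding or touch, 5 were lower in cepd, as ERF2 and ERF5 were, and 1 was higher. The list held 26 genes, 23 of which were tested, and the median log2FC was -0.38. Of those tested, 17 did not pass and 26.1% passed. Among all genes tested 17.9% passed, 8.3% lower and 9.64% higher. TCH2, a calmodulin-like touch gene, had 20.2 to 22.4 CPM in cepd and 26.3 to 31.7 CPM in Col-0, a log2FC of -0.51 (adjusted p = 0.00329 from edgeR). WRKY46, a transcription factor of immune responses, had 1.13 to 1.72 CPM in cepd and 2.11 to 3.86 CPM in Col-0, a log2FC of -1.11 (adjusted p = 0.0103 from edgeR). ATL2, a chitin-induced RING-type ubiquitin ligase gene, had 11.7 to 12.7 CPM in cepd and 13.8 to 16.9 CPM in Col-0, a log2FC of -0.38 (adjusted p = 0.0144 from edgeR). Leaving out Col-0 replicate 3 ended the calls of WRKY46 and ATL2 (adjusted p of 0.0503 and 0.0608, edgeR), and leaving out Col-0 replicate 4 that of ATL2 (adjusted p of 0.0542). Both passed with the block (adjusted p = 0.011 for WRKY46 and 0.00606 for ATL2 from edgeR).

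The number of early response genes that were lower depended on the Col-0 libraries. It was 10 without Col-0 replicate 1, 1 without Col-0 replicate 3 and 3 without Col-0 replicate 4. Over all genes tested, the number lower moved in the same directions, from 1710 with all libraries to 2591, 998 and 1250 in that order. The summed level of the 26 genes was 342, 351, 351 and 343 CPM in cepd replicates 1 to 4, against 344, 432 and 410 CPM in Col-0 replicates 1, 3 and 4. In this sum, Col-0 replicate 1 was at the level of cepd. For each of the 5 genes called lower with all libraries, it lay above every cepd library, as with TCH2 (26.3 CPM against 20.2 to 22.4 CPM). Col-0 replicate 1 was also the lowest Col-0 library for ERF2, ERF5, ERF6 and ERF1, and for ORA59 and ERF15, which were higher in cepd. Without it ERF2 had a log2FC of -1.97 and ERF5 one of -0.54 (adjusted p = 0.000248 and 0.00191 from edgeR). Whether this library's lower early response level had a part in the differences was not tested.

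**Figure D4:**
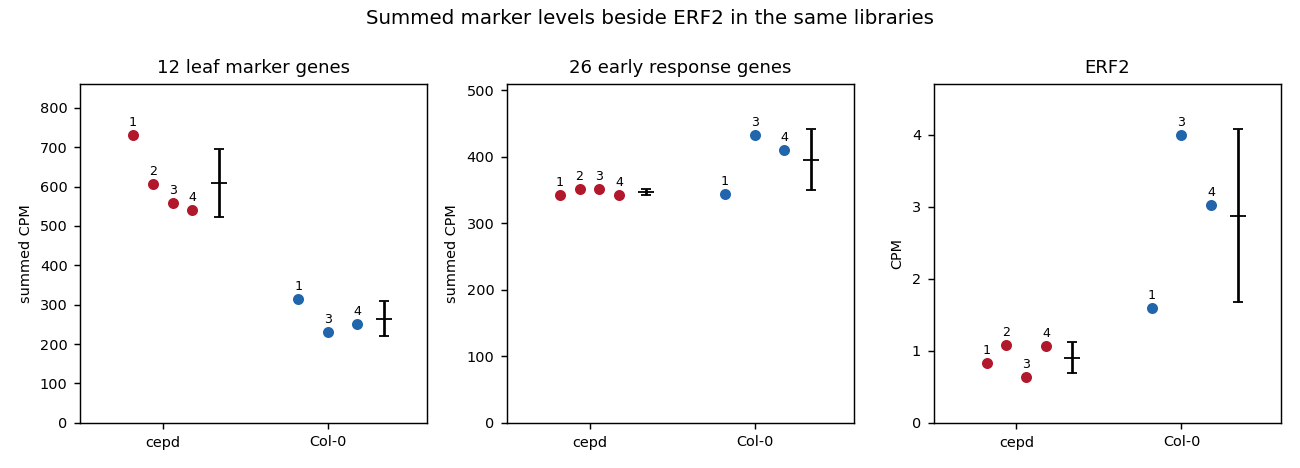
Summed CPM of 12 leaf marker genes and of 26 early response genes, and CPM of ERF2, in each library, with cepd in red and Col-0 in blue. Digits give the replicate and black bars the mean ± SD over 4 cepd and 3 Col-0 libraries. Col-0 replicate 1, with 344 CPM of early response transcripts, lay within the range of 342 to 351 CPM in cepd and had the lowest ERF2 level of Col-0.

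For each tested member, the other tested gene with the most similar pattern over the 7 libraries was found by Pearson's r of log2(CPM + 0.5), as a description. These are the highest of 20599 values each, and the libraries share genotype and experiment. For ERF107 it was AT2G15890 (r = 0.9969), with 32.0 to 56.4 CPM in cepd and 7.38 to 19.3 CPM in Col-0. For ERF104 it was AT4G29110 (r = 0.9970), with 3.83 to 4.65 CPM in cepd and 2.44 to 3.01 CPM in Col-0. For ERF2 it was AT4G23250 (r = 0.9939), with 0.406 to 0.51 CPM in cepd and 0.693 to 1.19 CPM in Col-0. For ERF5 and ERF6 it was AT1G05540 (r = 0.9900) and AT4G08175 (r = 0.9903), both under 1 CPM in every library. For ORA59 it was BR6OX2, a brassinosteroid synthesis gene (r = 0.9864), with 24.9 to 27.8 CPM in cepd and 22.6 to 24.4 CPM in Col-0. BR6OX2 itself did not pass the test (log2FC of 0.17).

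**Figure D5:**
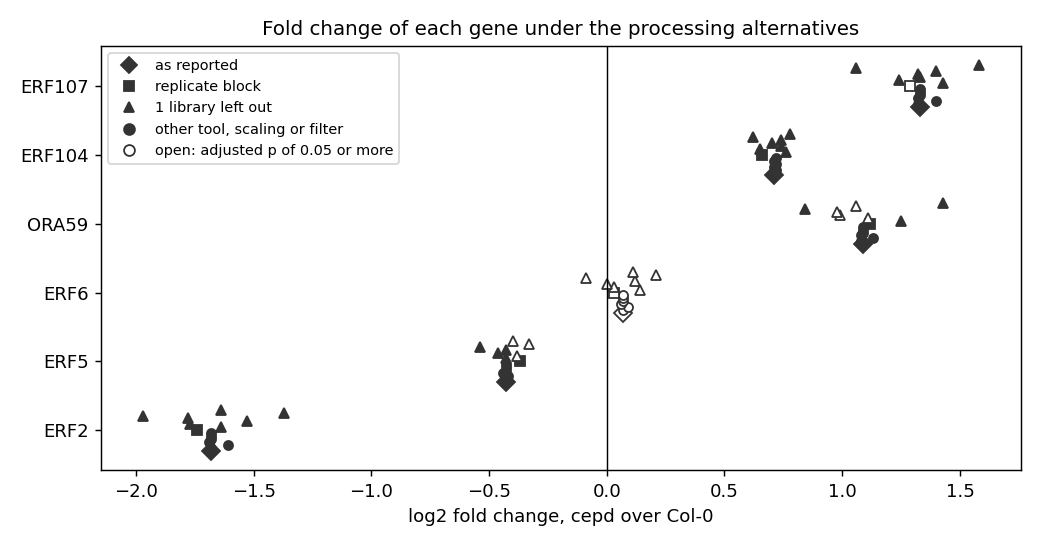
Log2 fold change (cepd over Col-0) of the 6 tested members as reported (diamonds) and under 14 alternatives each, with open symbols for an adjusted p of 0.05 or more. ERF104 and ERF2 passed under every alternative shown, ERF107 failed with the replicate block, ERF5 failed without 1 of 3 libraries and ORA59 without 1 of 4, and ERF6 passed under none of them.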

How the data were processed

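Root RNA of 4 cepd and 3 Col-0 samples had been sequenced from TruSeq RNA v2 libraries. The deposited files give raw counts for each gene, which the authors obtained, per the submitters' processing notes, with CASAVA 1.8.2, STAR 2.5.2b-2 and HTSeq 0.9.1 on TAIR10. The notes also name DESeq2 2.11.40.6. All 32548 nuclear identifiers were found in TAIR10.1. The files hold no summary lines of unassigned reads, and HTSeq's strand and overlap settings are not given in the sources used here.

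Counts were tested in R 4.3.3 with edgeR 4.0.16 (filterByExpr with a minimum count of 10 and a minimum total of 15, TMM, robust quasi-likelihood F test, no block), with the Benjamini-Hochberg correction over the 20600 genes tested. A standard error is the absolute log2FC divided by the root of F. CPM use the library size times the TMM factor, and the biological coefficient of variation was 11.2%. Ratios of neighbouring genes used log2(CPM + 0.5) and two-sided exact permutation over all 35 regroupings. The procedure was tested on simulated data. Precision is limited by 30758339 to 46611731 counts per library and by n. Python 3.11.15, numpy 2.4.6, pandas 2.3.3, scipy 1.17.1 and matplotlib 3.10.9 were used.

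After the genotype mean of each gene was subtracted, same-numbered libraries correlated over genes at 0.435, 0.189 and 0.274 for numbers 1, 3 and 4, so that, with 4 independent experiments named by the submitters, the numbers were taken to pair the samples. Of differently numbered pairs, 3 were also above 0.1, the highest at 0.192. With the number as a block, cepd replicate 2 is alone and adds nothing to the genotype difference. The block was an alternative. Others were DESeq2 1.42.0, its size factors, limma-voom (limma 3.58.1), a stricter filter or none, only nuclear genes, a pseudocount of 1, raw count ratios, an absolute log2FC over 1 and leaving out each library.

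The members and lists were chosen with earlier results of these data known. Genes named were all 8 members, other group IX genes that passed, up to 3 genes with the smallest adjusted p under 0.05 from each list and the most similar gene to each tested member. Other genes were chosen after their values were seen.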

Additional observations from a re-analysis of the deposited data

How the results depend on the processing

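ERF104 and ERF2 kept their direction and passed under all 14 alternatives, with log2FC from 0.62 to 0.78 and from -1.97 to -1.37. ERF107 passed under 13 of 14 (log2FC from 1.06 to 1.58), ERF5 under 11 (from -0.54 to -0.33) and ORA59 under 10 (from 0.84 to 1.43), as given in the report. ERF6 passed under none, and its log2FC ran from -0.09 without Col-0 replicate 1 to 0.21 without Col-0 replicate 3. The number of members called ranged from 2 to 3 higher and from 1 to 2 lower when 1 library was left out, and with an absolute log2FC over 1 it was 2 higher and 1 lower. With the replicate block, 2 members were higher and 2 lower. The block ended the call of ERF107 and of no other member, and it ended none of the calls named from the other gene lists. The genes named for a similar pattern were not run with it. Over all genes, the block gave 2727 lower and 2866 higher genes in place of 1710 and 1986, and the fold change threshold gave 505 lower and 397 higher. Leaving out 1 library gave 998 to 2591 lower and 1167 to 2597 higher genes. The lowest counts came without Col-0 replicate 3 and the highest without Col-0 replicate 1. The cause was not tested.

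Without 1 library, the difference in the log2 ratio of ERF107 to ERF104 ranged from 0.42 to 0.83 and that of ERF2 to ERF5 from -0.99 to -0.64. With 6 libraries the exact permutation test cannot give a p under 0.05, so these settings say nothing about the calls. The ratio of ERF2 to ERF5 did not pass with a pseudocount of 1 (a difference of -0.58, exact permutation p = 0.0571). With raw count ratios the difference was -1.15 and passed (exact permutation p = 0.0286). ERF2 and ORA59 rest on the fewest counts of the members tested, ERF1 was removed by the filter on low counts and did not pass in the alternatives that kept it (adjusted p from 0.092 to 0.475), and ERF105 was not measured.

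No member, other group IX gene or neighbour ratio had a cepd library that stood apart from the other 3 by Dixon's criterion, and the 3 Col-0 libraries are too few for it.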
